A study of Mus musculus with 4 samples.

Results

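Type I interferon response genes are the transcripts that cells raise when interferon alpha or beta binds its receptor. The set described here is a list of 34 such genes, and a gene belonged to it when its symbol stood in the gene column of the authors' deposited table. By that rule 33 of the 34 were found among 23996 genes, and all 33 were among the 11569 genes that the authors tested. The remaining one, Ifit3b, had no row under that symbol, but RefSeq lists a clone name as its synonym, and the row of that name is given separately.

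The data are messenger RNA profiles of follicular helper T (TFH) cells, which support B cells during the germinal centre reaction. The cells were isolated from the spleen by sorting on the surface phenotype CD4+CD44+CXCR5+PD-1+. Etv5 conditional knockout mice (Etv5 cKO) had the genotype Etv5f/f;Cd4-Cre, in which Cre driven by Cd4 regulatory sequence acts in T cells from their thymic CD4 stage on, so that CD8 T cells delete as well. WT mice carried the same floxed Etv5 alleles (Etv5f/f) without Cre, so Cre itself was present in 1 group only. All mice had been immunized with ovalbumin in alum 7 days earlier, and no age, sex or strain is given in the labels. There were 2 libraries of either genotype, and the labels do not tell whether each is from its own mouse. For every gene the deposited table has a single FPKM value for each genotype (a fragment level scaled to transcript length and library size), so no spread between libraries can be shown, sequencing depth is unknown, and the deposited Cuffdiff p-values, which may reflect technical spread, are the only measure of error.

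Interferon alpha and beta bind a receptor of the chains IFNAR1 and IFNAR2, whose kinases JAK1 and TYK2 phosphorylate STAT proteins, STAT2 among them. Phosphorylated STATs join IRF9 to form the complex ISGF3, which binds the interferon-stimulated response element in the promoters of the responding genes. The induced proteins sense or degrade viral nucleic acid, block virus assembly, or amplify and end the signal itself. In CD4 T cells type I interferon is known to influence the choice between Th1 and TFH fates.

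The element that ISGF3 binds was looked for as TTTC, any 2 bases and TTTC, on either strand, in RefSeq windows (GRCm38.p6) from 250 bases before to 50 bases after a start site of the gene. A total of 29 windows were at hand for 24 of the 34 listed genes, 4 of which had more than 1, and 13 of these (54.2%) held the motif, against 3.99% of 27025 genes with a window. The longer form with AG in front stood in 7 of the 24 (29.2%), against 0.303% of all genes. The STAT motif of TTC, any 3 bases and GAA, which can overlap the first, stood in 6 of the 24 (25.0%), against 9.55% of all genes. A match is a run of letters and not evidence of binding. The promoter stretches of 7 of the genes with a match are printed below 5′ to 3′ on the gene's own strand. The TTTC or GAAA letters of each match are in capitals. These genes were picked from those with a match, so that they hold the motif is no result. The stretches of the other genes with a match are not printed. Positions count back from -1, the base before the start site of the window. That site is the outermost RefSeq base of the gene in 8 of the 13 windows with a match. In the other 5 it lies inside the gene, by 19 bases for Oas1a, 25 for Oas3, 374 for Ifi203, 410 for Ifit3 and 427 for Ifit3b, so the stretches of Ifit3 and Ifit3b and part of that of Oas1a lie within the RefSeq gene bounds.

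Isg15 (chr4:156200853-156200918, minus strand, -100 to -35): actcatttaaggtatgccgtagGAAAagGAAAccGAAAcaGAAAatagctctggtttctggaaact
Bst2 (chr8:71537565-71537624, minus strand, -152 to -93): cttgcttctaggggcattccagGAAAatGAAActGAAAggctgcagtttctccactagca
Oas1a (chr5:120907526-120907567, minus strand, -42 to -1): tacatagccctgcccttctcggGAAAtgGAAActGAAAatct
Ifit1 (chr19:34640763-34640835, plus strand, -126 to -54): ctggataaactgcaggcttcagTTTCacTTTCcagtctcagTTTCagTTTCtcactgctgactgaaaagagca
Ifit3 (chr19:34583351-34583438, plus strand, -178 to -91): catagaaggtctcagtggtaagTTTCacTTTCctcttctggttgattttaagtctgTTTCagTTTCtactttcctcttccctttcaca
Ifit3b (chr19:34607747-34607834, plus strand, -210 to -123): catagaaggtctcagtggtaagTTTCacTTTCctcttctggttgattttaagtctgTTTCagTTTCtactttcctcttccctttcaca
Cxcl10 (chr5:92349071-92349124, minus strand, -235 to -182): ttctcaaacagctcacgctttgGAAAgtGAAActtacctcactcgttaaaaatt

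Isg15 held 3 matches that overlap at steps of 6 bases, and Oas1a and Bst2 held 2 each at the same step. Ifit1 held 2 separate matches whose starts lie 19 bases apart, and Ifit3 and Ifit3b held 2 each, 34 bases apart. The printed stretches of Ifit3 and Ifit3b are letter for letter the same, and the windows of these neighbours share an unbroken run of 169 bases. The 18 matches that lie wholly before the start site of their window belonged to 11 genes, with their first base 14 to 222 bases before it, while Ddx58 and Ifih1 held theirs after it.

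**Figure D1:**
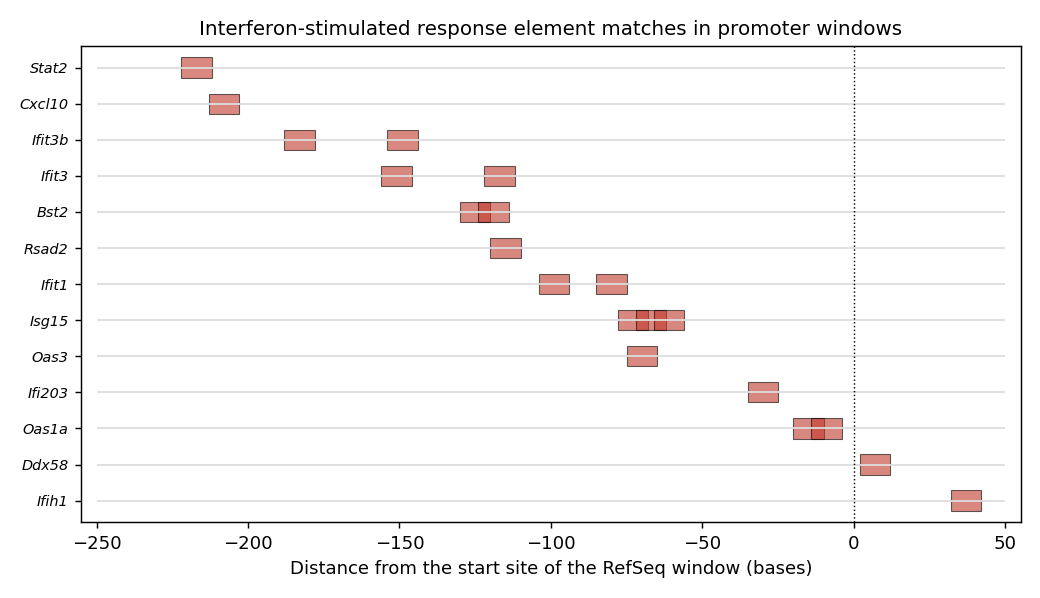
Each row is 1 listed gene with a match, the x axis is the distance in bases from the start site that the RefSeq window is built on, the dotted line is that site, and each box is a match of 10 bases. Isg15, Oas1a and Bst2 carry overlapping boxes, the 2 boxes of Ifit3 and of Ifit3b are 34 bases apart in both genes, and Ddx58 and Ifih1 have their box to the right of the site.

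Before the genes of the list, the label of the samples was checked on the targeted gene. Etv5 stood at 2.12 FPKM in Etv5 cKO and 5.24 FPKM in WT, a log2 fold change of -1.31 in the authors' deposited table (Cuffdiff adjusted p = 0.0181). The T and TFH markers Cd3e, Cd4, Cd5, Cxcr5, Pdcd1, Bcl6 and Icos were all between 86.9 and 578 FPKM in both genotypes, where the median of the log2 fold changes was -0.15 and 0 of 7 were called. Erythroid markers summed to 565 FPKM in Etv5 cKO and 122 FPKM in WT, with 6 of 6 higher and 5 called. The 4 granulocyte markers found summed to 18.3 FPKM in Etv5 cKO and 8.27 FPKM in WT, with 4 of 4 higher and 1 called. Sex-linked genes, chosen after their values were seen, differed as well: Ddx3y, Uty, Kdm5d and Eif2s3y on the Y chromosome were called lower in Etv5 cKO (2.23 to 11.8 FPKM in Etv5 cKO, against 5.41 to 27.4 FPKM in WT). Xist, which female cells transcribe, stood at 172 FPKM in Etv5 cKO and 110 FPKM in WT (Cuffdiff adjusted p = 0.999 in the authors' deposited table). The part of these differences in the results below was not tested. In such bulk samples fewer cells of a type and less RNA per cell cannot be told apart.

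Not one of the interferon response genes passed the test. On the log2 scale 15 of 33 (45.5%) differed by less than 0.1 and 21 (63.6%) by less than 0.2, against 54.9% and 78.9% of all tested genes. Of the 33 genes, 25 had the higher FPKM in Etv5 cKO and 8 the lower. Their deposited log2 fold changes had a median of 0.07, and over all tested genes 48.9% were higher and the median was -0.0032. Cuffdiff called 0 of 33 at an adjusted p below 0.05, where 0.346% of all tested genes were called (0.104% higher and 0.242% lower), and every gene of the list had an adjusted p of 0.999. At an unadjusted p below 0.05 there were 2 of 33, or 6.06%, against 2.40% of all tested genes (1.11% higher and 1.30% lower). They were Oas2, with the higher value in Etv5 cKO, and Cxcl10, with the lower. The log2 fold changes ran from -0.67 to 0.60, and without these 2 genes from -0.32 to 0.34. The smallest absolute log2 fold change among the 40 called genes of the table was 0.68, so each gene of the list differed by less than any gene that the test called. Missing the threshold does not show that a gene was at the same level in both genotypes.

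**Figure D2:**
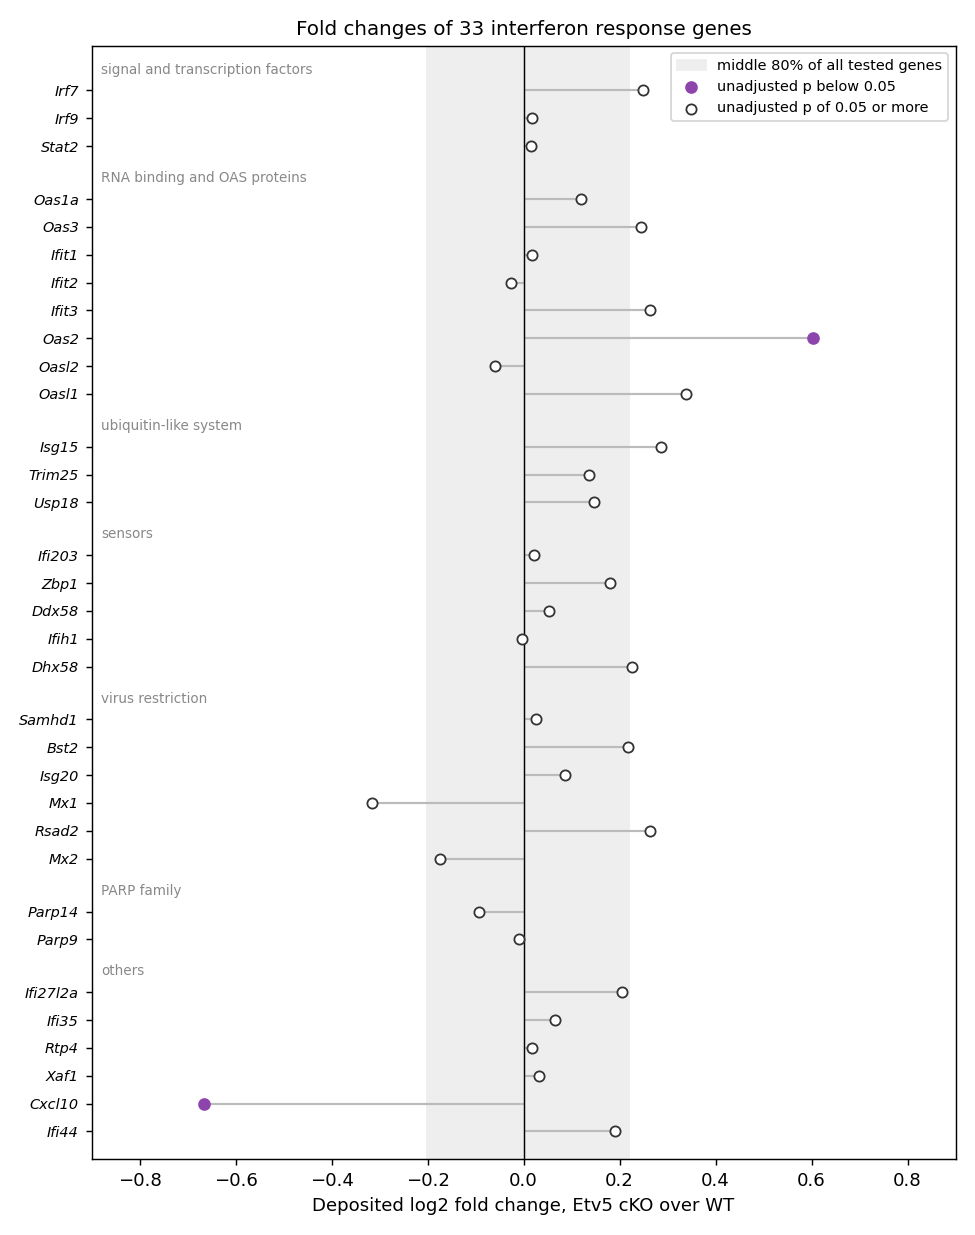
Points give the deposited log2 fold change, Etv5 cKO over WT, of each of 33 genes grouped by role, filled where the unadjusted p is below 0.05, and the grey band holds the middle 80% of all tested genes (-0.20 to 0.22). Oas2 at 0.60 and Cxcl10 at -0.67 lie farthest out; 8 genes lie above the band and 2, Mx1 and Cxcl10, below it.

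The levels of the list spanned a wide range. Ifi27l2a, a small interferon-induced protein of mitochondria and other membranes, had by far the highest level, at 1597 FPKM in Etv5 cKO and 1385 FPKM in WT. It alone made up 60.3% of the summed FPKM of the list in Etv5 cKO and 58.1% in WT, and 99.6% of the tested genes had a lower mean level. Samhd1, an enzyme that depletes nucleotides and thereby restricts retroviruses, followed at 199.6 FPKM in Etv5 cKO and 196 FPKM in WT. Ifi44, an interferon-induced protein named for its size, was the lowest, at 0.961 FPKM in Etv5 cKO and 0.842 FPKM in WT. By mean level 5 genes lay under 5 FPKM, 21 from 5 to 50 FPKM and 7 at 50 FPKM or more. The median over the list was 23.4 FPKM in Etv5 cKO and 21.5 FPKM in WT, against 14.3 and 14.5 FPKM over all tested genes in Etv5 cKO and WT. Summed over the list, the level was 2649 FPKM in Etv5 cKO and 2384 FPKM in WT, a ratio of 1.11, and without Ifi27l2a it was 1053 and 998 FPKM, a ratio of 1.05.

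**Figure D3:**
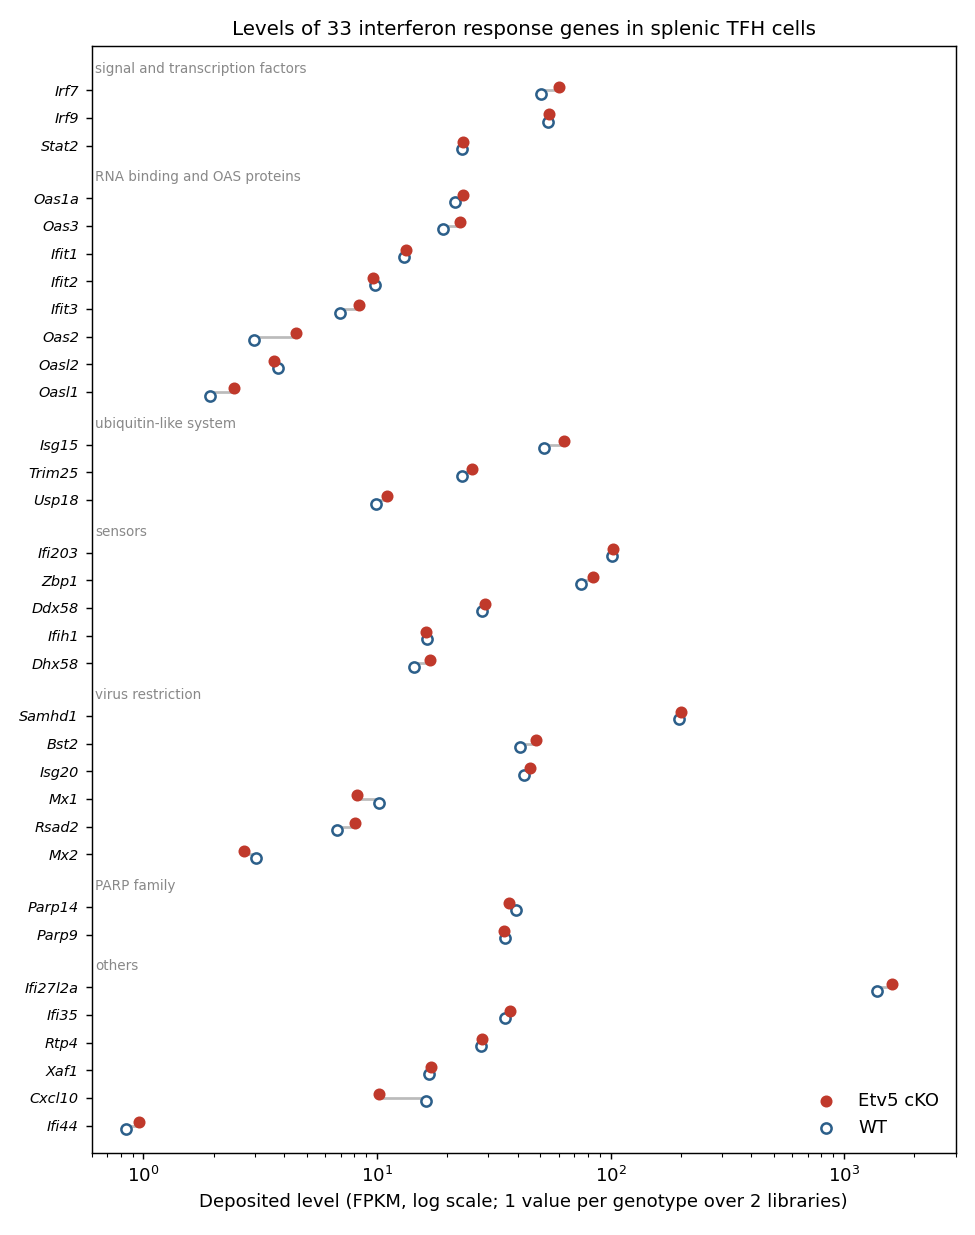
The x axis is the deposited FPKM level on a log scale, with a filled circle for Etv5 cKO and an open circle for WT, 1 value per genotype, and genes are grouped by role. The circles of most genes nearly touch, while those of Oas2 and Cxcl10 are set apart in opposite directions; levels run from under 1 FPKM for Ifi44 to 1597 FPKM for Ifi27l2a.

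The transcription factors of the pathway were present at moderate levels in both genotypes. Stat2, the STAT that only type I and type III interferon signalling depends on, stood at 23.4 FPKM in Etv5 cKO and 23.1 FPKM in WT. Irf9, the DNA-binding partner of the STATs, stood at 54.6 FPKM in Etv5 cKO and 54.0 FPKM in WT. These levels differed by no more than 1.23% of the WT value. Irf7, the factor that amplifies interferon production and is itself induced by interferon, stood at 60.1 FPKM in Etv5 cKO and 50.6 FPKM in WT (log2 fold change 0.25 in the authors' deposited table, unadjusted p = 0.171). Some exons of Irf7 overlap the gene Phrf1 on the opposite strand by 45 bases. Exons of Irf9 overlap Rnf31 on the same strand by 123 bases. Elsewhere in the list Rtp4, Parp14 and Ifi203 also overlap another gene on the same strand, by 296, 110 and 37 exon bases. Whether strand was used in counting is not stated.

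The 3 genes of the list that were grouped with the ubiquitin-like modifier ISG15 were on the higher side in Etv5 cKO without passing the test. Isg15 itself, a protein that is joined to other proteins after interferon exposure, stood at 63.5 FPKM in Etv5 cKO and 52.1 FPKM in WT (log2 fold change 0.29 in the authors' deposited table, unadjusted p = 0.150). Usp18, the protease that removes ISG15 and also damps signalling at IFNAR2, stood at 11 FPKM in Etv5 cKO and 9.93 FPKM in WT. Trim25, a ubiquitin ligase that acts on the sensor RIG-I, stood at 25.5 FPKM in Etv5 cKO and 23.2 FPKM in WT. The log2 fold changes of Usp18 and Trim25 were 0.15 and 0.14 in the authors' deposited table, about as large as the median absolute log2 fold change of the list, 0.137, which over all tested genes was 0.088.

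Oas2 had the largest positive log2 fold change of the list. It encodes an oligoadenylate synthetase, an enzyme that on double-stranded RNA makes the second messenger for RNase L, and stood at 4.50 FPKM in Etv5 cKO and 2.96 FPKM in WT. The log2 fold change of Oas2 was 0.60 in the authors' deposited table (unadjusted p = 0.0128, adjusted p = 0.999), and 0.47 and 0.25 with pseudocounts of 1 and 5 FPKM. Its listed neighbours on chromosome 5, in a stretch of 177 kb from 120730333 to 120907544, were higher by less. Oas3 stood at 22.7 FPKM in Etv5 cKO and 19.1 FPKM in WT. Oas1a stood at 23.4 FPKM in Etv5 cKO and 21.5 FPKM in WT. Their log2 fold changes were 0.24 and 0.12 in the authors' deposited table (unadjusted p = 0.176 for Oas3 and 0.533 for Oas1a). The level of Oas2 was the lowest of these 3 in both genotypes. Outside the list, the neighbour Oas1b stood at 15.4 FPKM in Etv5 cKO and 14.7 FPKM in WT. Oas1c stood at 10.5 FPKM in Etv5 cKO and 10.8 FPKM in WT. The log2 fold changes of Oas1b and Oas1c were 0.06 and -0.04 in the authors' deposited table. The longest transcripts of Oas1a and its copy Oas1g, which was not tested (0.158 FPKM in Etv5 cKO and 0.126 FPKM in WT), were 97.5% identical over 1860 aligned bases in GENCODE M21, so reads can fall to either.

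The OAS-like genes had values on opposite sides. Oasl1, which in mice is known to hold back the translation of Irf7, stood at 2.44 FPKM in Etv5 cKO and 1.93 FPKM in WT (log2 fold change 0.34 in the authors' deposited table, unadjusted p = 0.302). Oasl2, its neighbour with synthetase activity, stood at 3.61 FPKM in Etv5 cKO and 3.76 FPKM in WT (log2 fold change -0.06). Both are low, and with a pseudocount of 5 FPKM the log2 fold change of Oasl1 was 0.10.

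IFIT proteins bind viral RNA by its 5′ end and hold back its translation. Ifit1 stood at 13.3 FPKM in Etv5 cKO and 13.1 FPKM in WT, and Ifit2 at 9.63 FPKM in Etv5 cKO and 9.80 FPKM in WT, log2 fold changes of 0.02 and -0.03 in the authors' deposited table. Ifit3, a partner of IFIT1, stood at 8.36 FPKM in Etv5 cKO and 6.97 FPKM in WT (log2 fold change 0.26 in the authors' deposited table, unadjusted p = 0.261). These 3 genes lie within 99.5 kb of chromosome 19, from 34550550 to 34650009. The row under the RefSeq synonym of Ifit3b, a copy of Ifit3 in the same stretch, held 2.16 FPKM in Etv5 cKO and 1.55 FPKM in WT (log2 fold change 0.48 in the authors' deposited table, unadjusted p = 0.192). Transcripts of Ifit3 and Ifit3b were 98.0% identical over 1697 aligned bases, so the division of reads between this pair is uncertain and their values are not independent.

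The 5 genes of the list that were grouped as sensors of nucleic acid stood at 14 FPKM or more in both genotypes. Ddx58, which encodes the RNA sensor RIG-I, stood at 29.1 FPKM in Etv5 cKO and 28.0 FPKM in WT. Ifih1, which encodes the RNA sensor MDA5, had the smallest difference of the list, with 16.3 FPKM in both Etv5 cKO and WT and a log2 fold change of -0.0039 in the authors' deposited table. Dhx58, the regulator LGP2 of these sensors, stood at 16.9 FPKM in Etv5 cKO and 14.5 FPKM in WT (log2 fold change 0.23 in the authors' deposited table, unadjusted p = 0.251). Zbp1, a sensor of Z-form nucleic acid that can start cell death, was higher in level, at 84.5 FPKM in Etv5 cKO and 74.6 FPKM in WT (log2 fold change 0.18 in the authors' deposited table, unadjusted p = 0.397). Ifi203, a member of the interferon-inducible family of DNA-binding proteins, stood at 103 FPKM in Etv5 cKO and 101 FPKM in WT, and reads of this multigene family can be shared with its relative Mndal (126 FPKM in Etv5 cKO and 128 FPKM in WT).

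Among genes that restrict viruses directly, the Mx pair had the lower values in Etv5 cKO. Mx1, a dynamin-like GTPase that blocks influenza viruses and is defective in many laboratory strains of mice, stood at 8.22 FPKM in Etv5 cKO and 10.2 FPKM in WT (log2 fold change -0.32 in the authors' deposited table, unadjusted p = 0.134). Mx2, its neighbour on chromosome 16, stood at 2.69 FPKM in Etv5 cKO and 3.04 FPKM in WT (log2 fold change -0.17 in the authors' deposited table, unadjusted p = 0.534). RefSeq lists both genes of this pair as transcribed pseudogenes. Their longest transcripts were 79.0% identical over 2276 aligned bases. Rsad2, which encodes viperin, a radical enzyme that makes a chain terminator of viral RNA, stood at 8.07 FPKM in Etv5 cKO and 6.73 FPKM in WT (log2 fold change 0.26 in the authors' deposited table, unadjusted p = 0.231). Bst2, or tetherin, which holds budding virus at the cell surface, stood at 47.9 FPKM in Etv5 cKO and 41.1 FPKM in WT (log2 fold change 0.22 in the authors' deposited table, unadjusted p = 0.284). Isg20, an exonuclease, stood at 45.1 FPKM in Etv5 cKO and 42.5 FPKM in WT.

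Both PARP genes were marginally lower in Etv5 cKO. Parp14, an ADP-ribosyltransferase that works with STAT6 in cytokine responses, stood at 36.9 FPKM in Etv5 cKO and 39.4 FPKM in WT. Parp9, which pairs with the ubiquitin ligase DTX3L, stood at 35.0 FPKM in Etv5 cKO and 35.2 FPKM in WT. Dtx3l itself, which overlaps Parp9 by 458 exon bases on the opposite strand, stood at 33.7 FPKM in Etv5 cKO and 35.6 FPKM in WT. The log2 fold changes of Parp14 and Parp9 were -0.09 and -0.01 in the authors' deposited table.

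Cxcl10 had the largest difference of the list in either direction. It encodes a chemokine that draws cells bearing CXCR3 and is induced by interferon gamma as well as by type I interferon, and stood at 10.2 FPKM in Etv5 cKO and 16.2 FPKM in WT. Its log2 fold change was -0.67 in the authors' deposited table (unadjusted p = 0.0201, adjusted p = 0.999), and -0.62 and -0.48 with pseudocounts of 1 and 5 FPKM. The neighbouring chemokine genes Cxcl9 (0.129 FPKM in Etv5 cKO and 0.183 FPKM in WT) and Cxcl11 (listed at 0 in Etv5 cKO and at 0.0644 FPKM in WT) were not tested. The gene Art3 overlaps Cxcl10 by 133 exon bases on the opposite strand and stood at 1.65 FPKM in Etv5 cKO and 1.97 FPKM in WT. Ifng, the gene of interferon gamma, was called lower in the same libraries, with 14.5 FPKM in Etv5 cKO and 29.8 FPKM in WT (log2 fold change -1.04 in the authors' deposited table, Cuffdiff adjusted p = 0.0181). The part of Ifng in the value of Cxcl10 was not tested.

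The remaining genes of the list had an unadjusted p above 0.1. Ifi27l2a had a log2 fold change of 0.20 in the authors' deposited table (unadjusted p = 0.315). Ifi35, a partner of the protein NMI, stood at 37.0 FPKM in Etv5 cKO and 35.4 FPKM in WT. Rtp4, a chaperone of receptors, stood at 28.2 FPKM in Etv5 cKO and 27.8 FPKM in WT, and Xaf1, a binding partner of the apoptosis inhibitor XIAP, at 17.1 FPKM in Etv5 cKO and 16.7 FPKM in WT. The log2 fold change of Samhd1 was 0.03.

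The log2 fold changes were also set side by side for genes with and without the promoter motif. The 12 genes with a match and a row under their own symbol had a median of 0.09. Of these genes 10 were higher and 2 lower, and they ran from -0.67 to 0.29. For the 11 genes whose window held no match the median was 0.07, with 9 higher and 2 lower, and the range was -0.06 to 0.34. For the other 10 genes, Oas2 and both Mx genes among them, no window was used here, and their median was 0.08. Of those without a window 6 were higher and 4 lower, and the range was -0.32 to 0.60. Isg15, with 3 overlapping matches, and Cxcl10, with a single match, were at the upper and lower ends of those 12 genes with a match. Ifit3b, which held 2 matches, had its row under a synonym and was left out (log2 fold change 0.48 in the authors' deposited table). No test was made of this division.

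The inducers, receptors and signal transducers of the pathway were set beside the list. Of 21 interferon ligand genes 18 were listed at 0 in both genotypes, among them Ifnb1 and all Ifna genes of the list, and Ifng was the 1 tested gene. The receptor gene Ifnar1 stood at 32.5 FPKM in Etv5 cKO and 30.3 FPKM in WT, and Ifnar2 at 47.3 FPKM in Etv5 cKO and 50.1 FPKM in WT. The kinases Jak1 (155 FPKM in Etv5 cKO and 158 FPKM in WT) and Tyk2 (45.0 FPKM in Etv5 cKO and 46.2 FPKM in WT) were near equal between the genotypes. Ifngr1 and Ifngr2, the receptor chains for interferon gamma, had the lowest p-values of this group, with log2 fold changes of 0.30 and 0.27 in the authors' deposited table (unadjusted p = 0.104 for Ifngr1 and 0.274 for Ifngr2). Cuffdiff called 0 of the 10 tested receptor and transducer genes, against 0.346% of all tested genes. An unadjusted p below 0.05 was held by 0 of the 10, against 2.40% of all tested genes. Of these genes 3 were higher and 7 lower, and the log2 fold changes had a median of -0.04.

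Cuffdiff called 0 of the genes upstream and 0 of the inhibitors, against 0.346% of all tested genes. Of either, 0 had an unadjusted p below 0.05, against 2.40% of all tested genes. At these shares lists this short can hold none. Of 16 tested genes for nucleic acid sensing and its signalling 5 were higher and 11 lower, and the median was -0.05 on the log2 scale. The endosomal RNA receptor Tlr7 stood at 2.21 FPKM in Etv5 cKO and 1.51 FPKM in WT (log2 fold change 0.55 in the authors' deposited table, unadjusted p = 0.0961). Mb21d1, which encodes the DNA sensor cGAS, stood at 2.59 FPKM in Etv5 cKO and 3.38 FPKM in WT. Irf3, the factor that starts interferon transcription, stood at 55.4 FPKM in Etv5 cKO and 61.6 FPKM in WT, and the adaptor Myd88 at 49.8 FPKM in Etv5 cKO and 44.6 FPKM in WT. Of 18 tested inhibitors 9 were higher and 9 lower, and their median was 0.02. The values of lowest p among them belonged to Cish (24.7 FPKM in Etv5 cKO and 19.7 FPKM in WT), a feedback inhibitor of STAT5 signalling, and Tnfaip3 (129 FPKM in Etv5 cKO and 101 FPKM in WT), which encodes a ubiquitin-editing inhibitor of NF-kB. The phosphatase gene Ptpn11 stood at 75.3 FPKM in Etv5 cKO and 90.7 FPKM in WT, and Rnaseh2b, a subunit of RNase H, at 17.5 FPKM in Etv5 cKO and 14.3 FPKM in WT. Unadjusted p-values of these 4 inhibitor genes lay between 0.0873 and 0.195 in the authors' deposited table.

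In a second, longer list of interferon-induced genes the higher and lower values were about equal in number. Of its 70 tested genes 34 had the higher and 36 the lower FPKM in Etv5 cKO, and the log2 fold changes had a median of -0.0005. Cuffdiff called 0 of the 70, against 0.346% of all tested genes, and 1, or 1.43%, had an unadjusted p below 0.05, against 2.40%. That gene was Iigp1, a GTPase against intracellular parasites that interferon gamma induces strongly, at 16.1 FPKM in Etv5 cKO and 21.3 FPKM in WT (log2 fold change -0.41 in the authors' deposited table, unadjusted p = 0.0366). Apol9b followed at 2.34 FPKM in Etv5 cKO and 3.57 FPKM in WT, and Ifitm3, which keeps viruses from fusing in endosomes, at 11.6 FPKM in Etv5 cKO and 7.55 FPKM in WT (unadjusted p = 0.0624 for Apol9b and 0.0809 for Ifitm3 in the authors' deposited table). Lgals3bp, a secreted glycoprotein, stood at 104 FPKM in Etv5 cKO and 86.7 FPKM in WT. Other GTPase genes of the second list that interferon gamma induces differed by less than Iigp1. Gbp7 had a log2 fold change of -0.15 in the authors' deposited table, Gbp3 -0.06, Gbp2 -0.04 and Ifi47 0.01. Igtp stood at 62.2 FPKM in Etv5 cKO and 62.3 FPKM in WT, and Irgm1 at 53.2 FPKM in both. The difference between the lists, 75.8% higher in the first and 48.6% in the second, was not tested, and both lists were drawn up with earlier results of these data known.

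**Figure D4:**
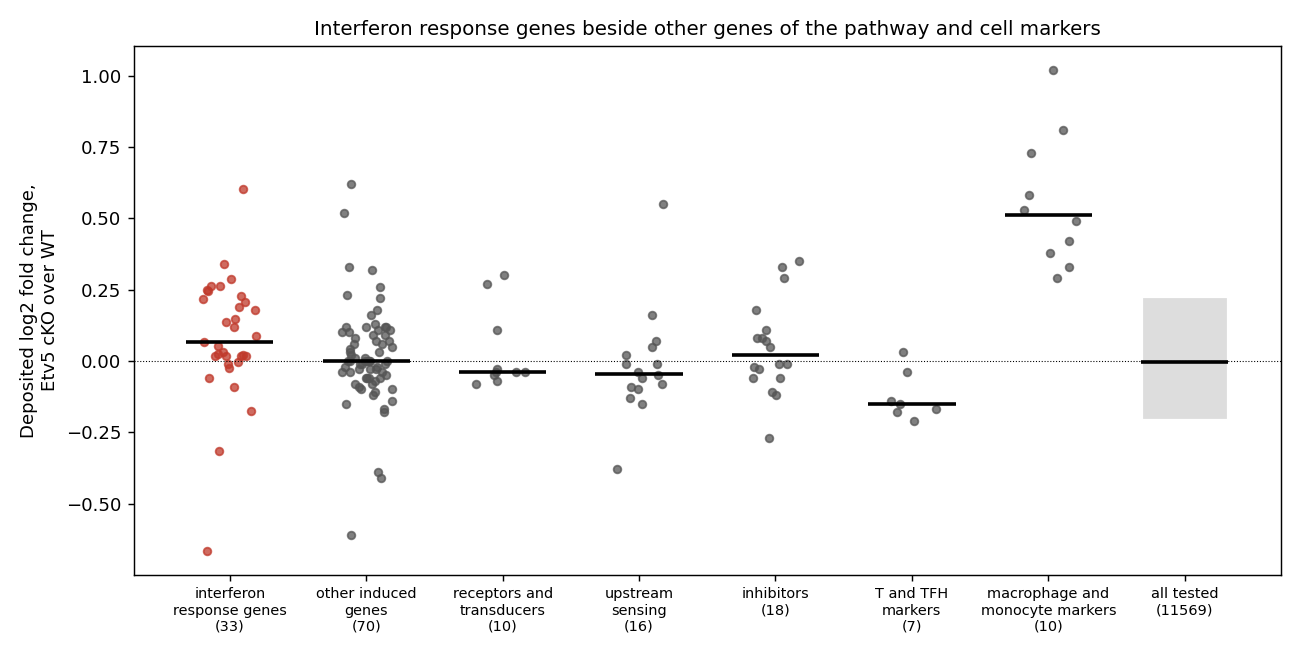
Each point is the deposited log2 fold change, Etv5 cKO over WT, of 1 tested gene, thick lines are medians, numbers in brackets are genes tested, and the grey box holds the middle 80% of all tested genes. The 33 genes have a median of 0.07 and the 70 other induced genes one of -0.0005, while all 10 macrophage and monocyte markers lie above 0.

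Markers of myeloid cells, which respond strongly to interferon, were higher in the same Etv5 cKO libraries. All 10 macrophage and monocyte markers had the higher value in Etv5 cKO, 161 FPKM summed in Etv5 cKO and 112 FPKM in WT, the median was 0.51 on the log2 scale, and none was at 0. Lyz2, the lysozyme of myeloid cells, rose to 16.4 FPKM in Etv5 cKO, against 8.12 FPKM in WT (log2 fold change 1.02 in the authors' deposited table, Cuffdiff adjusted p = 0.0434). The other 9 were not called. Plasmacytoid dendritic cells make much type I interferon and carry Bst2. Of their markers, Siglech stood at 0.328 FPKM in Etv5 cKO and 0.0968 FPKM in WT and was not tested. Of the 4 that were tested, 2 were higher and 2 lower in Etv5 cKO. Over all 5 of these markers the sum was 25.3 FPKM in Etv5 cKO and 27.1 FPKM in WT, and Pacsin1 alone stood at 19.7 FPKM in Etv5 cKO and 22.5 FPKM in WT. Dendritic cell markers summed to 1.81 FPKM in Etv5 cKO and 1.65 FPKM in WT, and the 1 that was tested was lower in Etv5 cKO. CD8 and NK cell markers summed to 25.2 FPKM in Etv5 cKO and 21.9 FPKM in WT. The 4 of them that were tested were all higher in Etv5 cKO, with a median of 0.33 on the log2 scale and 0 called. The part of these cells in the values of the interferon response genes was not tested.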

How the data were processed

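The labels' protocols name a stranded mRNA library kit. Tools listed without an order, per the submitters' processing notes, are Cuffdiff 2.2.0 and TopHat2 2.0.13, with the build mm10, and the annotation, strand setting and scaling used are not given. Per the file headers, each FPKM value of the authors covers both libraries of a genotype. The authors' log2 fold changes set Etv5 cKO over WT with no pseudocount, and recomputing them from the FPKM values gave differences of at most 4.1e-11. The deposited fold ratio (larger over smaller FPKM) and the deposited test score were not reported. A gene was called at a deposited Cuffdiff adjusted p below 0.05, adjusted over all genes tested, and the smallest deposited p-value is 5e-05. An empty line (1 in all) was skipped.

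The interferon genes and all lists were chosen with earlier results of these data known, and sex-linked and neighbouring genes were added afterwards. All 34 listed genes are named, as are up to 4 genes of lowest p per pathway list and a few fixed ones and the T and TFH markers. Siglech and the GTPase genes set beside Iigp1 were chosen after their values were seen. Some genes are not reported here. Most other cell markers are given as sums. Symbols were matched to the table directly or through RefSeq synonyms. Identity was computed by global alignment of the longest protein-coding transcripts. Genes with a mean of at least 1 or 5 FPKM, pseudocounts of 1 and 5 FPKM, other scalings and other thresholds were tried. The calculations were tested on simulated data. Python 3.11.15, pandas 2.3.3 and matplotlib 3.10.9 were used. FPKM values carry no counts, so no interval or detection limit was computed.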

Additional observations from a re-analysis of the deposited data

How the results depend on the processing

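No paired analysis was possible because the deposited table holds 1 value per genotype, and for the same reason no library could be left out in turn. Of 132 values of single genes under 4 alternatives (2 pseudocounts, centring and quantile normalization) 130 kept their direction, and the other 2 were near 0: under quantile normalization the log2 fold change was -0.0013 for Irf9 and 0.0073 for Ifih1. The median log2 fold change of the list, 0.07, was 0.06 with a pseudocount of 1 FPKM, with quantile normalization and with a minimum mean of 1 or 5 FPKM, 0.04 with a pseudocount of 5 FPKM, and 0.05 without the paralogs (Ifit3 and the Oas, Oasl and Mx genes). With the synonym row of Ifit3b, an alternative chosen after seeing the data, it was 0.08. Without those paralogs fewer genes were counted, with 20 higher in place of 25 and 5 lower in place of 8. At an unadjusted p below 0.05 the count of called genes was 2 in the list and 1 among the other induced genes, in place of 0. Counting every ligand gene above 0 in both genotypes gave 1 higher and 2 lower. The summed ratio of 1.11 was 1.05 without Ifi27l2a and 1.09 relative to the sum of all tested genes. The share of listed genes with a window that held the motif was 29.2% for the longer motif and 45.8% before the start site of the window, in place of 54.2%. Sequencing depth is unknown, so what it limits could not be computed.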
